A study of Mus musculus with 18 samples.

Results

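Glutamate transporters and the enzymes that make and consume glutamate were followed in cultured mouse neurons exposed to homocysteic acid (HCA) and to adaptaquin. The genes were the plasma membrane transporters Slc1a1, Slc1a2 and Slc1a3, the vesicular transporters Slc17a6 and Slc17a7, glutamine synthetase (Glul) and glutamate dehydrogenase (Glud1). Every probe on the array whose gene symbol was 1 of these 7 was taken, which gave 12 of the 25697 probes, for 7 of 16593 genes named there. The set was selected on the HCA rise of the Slc1a2 level in these arrays, so the HCA values of all 7 genes are given as a description, not as a test. Limma calls on them are counted only beside the share of all probes called, and carry no weight as evidence. A probe counted as above background on an array where its detection p-value was below 0.01, and it was tested if that held for 2 or more of the 17 arrays used, as it did for 9 of the 12 probes and 6 of the 7 genes. Passing that filter was possible through the HCA arrays alone.

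The cells carried 6 treatments, with 3 arrays each. The groups were HCA alone, HCA with 0.1 µM adaptaquin, HCA with 1 µM adaptaquin, 0.1 µM adaptaquin alone, 1 µM adaptaquin alone, and no treatment. Adaptaquin, coded BQ in the sample titles, inhibits the oxygen-sensing prolyl hydroxylases. HCA, which the labels give only by its letters, is known from the study as homocysteic acid, a glutamate analogue that blocks cystine uptake and depletes glutathione. The labels call the samples cultured neurons and give no brain region, age, exposure time or separate culture for each replicate, so a p-value reflects only how far these samples scatter, and that scatter could be technical. The third HCA-only array is titled as an outlier and was left out, leaving 2 arrays in that group.

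Glutamate released at synapses is cleared by sodium-coupled transporters of the Slc1 family. Slc1a2 (GLT-1, EAAT2) and Slc1a3 (GLAST, EAAT1) do most of this work and are mainly glial in the adult brain, although cultured neurons can also make Slc1a2, and Slc1a1 (EAAC1, EAAT3) is the main neuronal form and also carries cysteine. Astrocytes turn the glutamate into glutamine with Glul, neurons take the glutamine back, and Slc17a7 (VGLUT1) and Slc17a6 (VGLUT2) load the glutamate made from it into vesicles, while Glud1 in mitochondria links glutamate to the citric acid cycle.

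The levels below are log2 intensities after background correction and quantile normalization, and a difference of 1 is a doubling. Levels of different probes are not comparable with each other. On the 17 arrays 42.8% to 47.6% of probes stood above background, and the upper quartile of the deposited intensity ranged from 333 to 563. The array titled as an outlier had 40.9% of probes above background, and 0 arrays held identical values. Of 12 neuron markers listed 10 passed, among them Stmn2, Dcx, Map2 and Syn1, while Snap25 and Nefl were not above background on any array. Glial RNA was also present, since 10 of 14 astrocyte markers passed, among them Gja1, Aldoc, Apoe and Atp1b2, while S100b, Slc4a4 and Mlc1 were not above background on any array and Gfap was on 3.

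Slc1a2 was the member with the clearest HCA response, and Slc1a3, the other astrocytic transporter, was lower on HCA arrays. Their sequences upstream of the annotated start are shown because these are the 2 member genes whose arrays with and without HCA did not overlap at any dose, by a tested probe. That choice rests on the HCA values and is a description. Of all probes, 31.5%, 15.7% and 14.1% did not overlap at 0, 0.1 and 1 µM, and the share that did so at every dose was not computed. Each sequence is the 250 bases before the start in RefSeq (GRCm38.p6), written 5′ to 3′ on the gene's strand. The Slc1a2 window lies on the plus strand at chr2:102706188-102706437, before an annotated start at 102706438 that is 48.2 kb inside the gene, so it is 1 of several possible starts. The Slc1a3 window lies on the minus strand at chr15:8710808-8711057, at the gene's 5′ end.
Slc1a2: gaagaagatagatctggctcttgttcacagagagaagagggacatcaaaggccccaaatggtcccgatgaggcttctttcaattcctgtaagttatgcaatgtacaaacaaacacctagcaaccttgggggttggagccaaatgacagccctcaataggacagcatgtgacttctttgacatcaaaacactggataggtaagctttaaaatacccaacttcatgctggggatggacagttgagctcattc
Slc1a3: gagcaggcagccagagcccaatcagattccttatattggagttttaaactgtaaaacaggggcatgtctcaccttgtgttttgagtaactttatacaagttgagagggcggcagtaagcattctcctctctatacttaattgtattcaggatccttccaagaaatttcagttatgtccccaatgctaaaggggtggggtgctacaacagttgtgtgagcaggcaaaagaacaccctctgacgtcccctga
Both strands of the windows of the 7 genes were searched for 5 motifs, each on its own, so that overlapping matches count. The motifs were the cyclic AMP response element TGACGTCA, held by 1.55% of the 32851 windows of this length, the AP-1 site TGANTCA (6.75%), the C/EBP and ATF composite site TGATGNAA (3.45%), the hypoxia response element core ACGTG (16.6%) and the antioxidant response element core TGACNNNGC (10.2%). Neither printed window held any of these letters, so nothing is set in capitals. The single match among the 7 genes was ACGTG upstream of Slc17a7, from 195 to 191 bases before its start.

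Slc1a2 was covered by 4 probes. The brightest, ILMN_3076439, stood at 7.54 and 8.44 on the HCA-only arrays, against 6.46, 5.99 and 5.57 on untreated arrays. With 0.1 µM adaptaquin it stood at 7.84, 8.31 and 8.40 with HCA, against 6.04, 5.76 and 6.43 without HCA. With 1 µM adaptaquin it stood at 7.50, 8.30 and 8.25 with HCA, against 6.34, 5.54 and 5.56 without HCA. Every HCA array lay above every array without HCA, at all doses. The probe was above background on all 8 HCA arrays. Without HCA it was close to background, being above it on 2 of 3 untreated arrays, 3 of 3 at 0.1 µM and 1 of 3 at 1 µM. The HCA change on the log2 scale was 1.98 ± 0.35 (SE, 2 against 3 arrays) without adaptaquin, 2.11 ± 0.31 at 0.1 µM and 2.20 ± 0.31 at 1 µM (3 against 3 each), the last of them against a group measured above background on 1 of its 3 arrays. Those values depended on the background correction, since without it they were 0.93, 1.03 and 1.00.

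The other responding probe of Slc1a2, ILMN_3123195, gave the same picture at a smaller size. It read 6.44 and 6.93 with HCA alone, against 5.88, 5.59 and 4.78 untreated. At 0.1 µM it read 6.51, 7.01 and 6.82 with HCA, against 5.70, 5.4 and 4.88 without HCA. At 1 µM it read 6.35, 6.78 and 6.80 with HCA, against 6.06, 5.27 and 5.80 without HCA. Again no HCA array overlapped with the arrays lacking HCA at the same dose, and the closest were 6.35 with HCA against 6.06 without, both at 1 µM and both numbered replicate 1. The changes were 1.26 ± 0.32, 1.45 ± 0.29 and 0.93 ± 0.29 at 0, 0.1 and 1 µM adaptaquin, and 0.41, 0.47 and 0.31 without background correction. It was above background on all 8 HCA arrays, against 4 of 9 without HCA.

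The remaining probes of Slc1a2, ILMN_2642339 and ILMN_3047516, were not above background on any of the 17 arrays, with levels of 4.40 to 4.78 and 4.56 to 5.68. Such a probe gives no measure of its transcript form and does not show that the form was absent. Snap25, a gene that neurons use heavily, was likewise not above background here. ILMN_3047516 is annotated to the same transcript record as ILMN_3123195, while ILMN_3076439 and ILMN_2642339 each have a record of their own. The response was thus read by 2 of the 4 probes.

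Arrays that carry the same replicate number deviated together, so each HCA array can be set against the array without HCA of its own number and dose. Slc1a2 by ILMN_3076439 was higher with HCA in 8 of 8 such pairs, by 1.08 to 2.76. By ILMN_3123195 it was higher in 8 of 8 pairs, by 0.29 to 1.94. In both probes the pair of replicate 1 had the smallest difference of its dose, at each of the 3 doses.

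**Figure D1:**
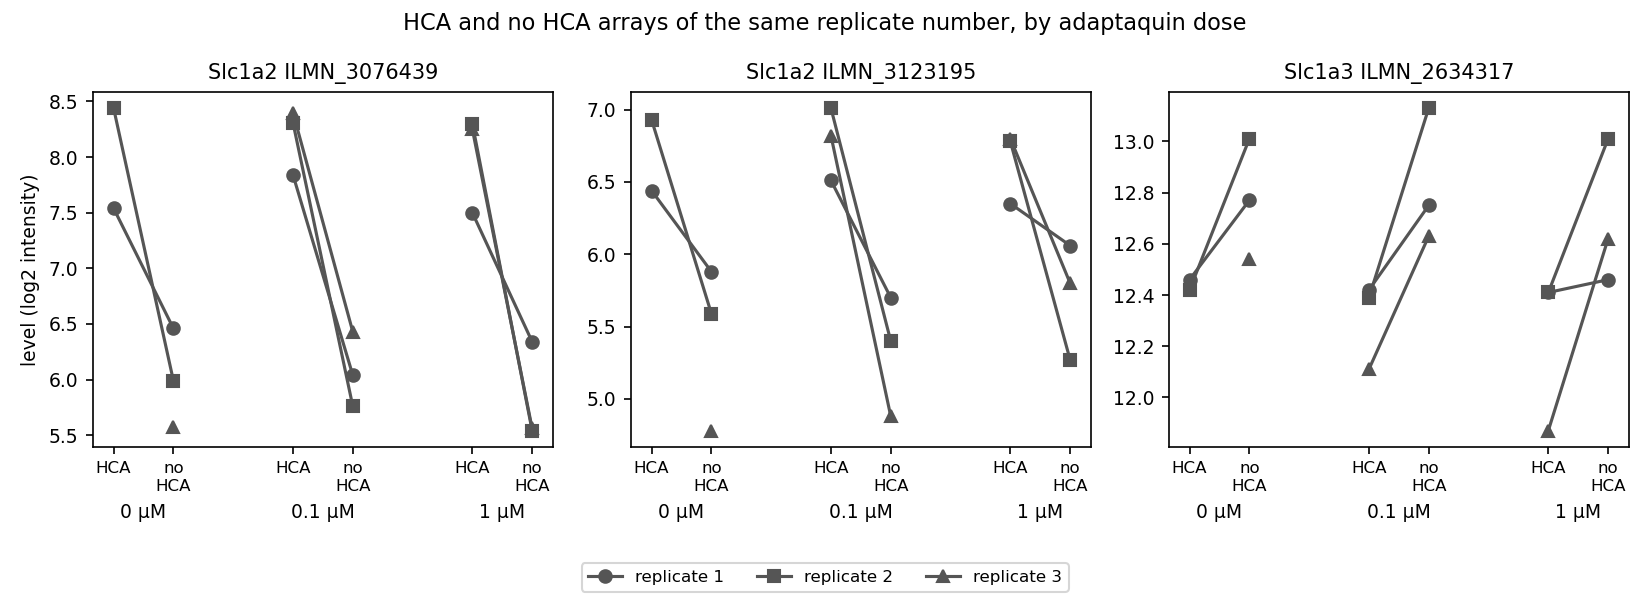
Levels (log2 intensity, vertical axis) of Slc1a2 by its 2 responding probes and of Slc1a3 on HCA arrays (left of each pair) and arrays without HCA (right) at 0, 0.1 and 1 µM adaptaquin. Lines join arrays of the same replicate number, marked by shape, and all 8 lines fall to the right for both Slc1a2 probes and climb for Slc1a3.

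Slc1a3, by contrast, was lower with HCA. Its probe read 12.46 and 12.42 on HCA-only arrays, against 12.77, 13.01 and 12.54 on untreated arrays. At 0.1 µM it read 12.42, 12.39 and 12.11 with HCA, against 12.75, 13.13 and 12.63 without HCA. At 1 µM it read 12.41, 12.41 and 11.87 with HCA, against 12.46, 13.01 and 12.62 without HCA. The groups did not overlap at any dose, although the gap at 1 µM was 12.41 against 12.46. The changes were -0.33 ± 0.21, -0.53 ± 0.19 and -0.47 ± 0.19 at 0, 0.1 and 1 µM, and all 8 pairs of the same number were negative, from -0.76 to -0.05. These values are a description, since the genes were picked with the HCA response known. Whether fewer cells of a type or less RNA per cell lay behind such a value cannot be told apart in RNA from whole cultures.

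Marker sums of other cell types differed in direction: those of progenitors and oligodendrocytes were mostly lower on HCA arrays and those of microglia mostly higher, and their part in the Slc1a3 values was not tested. The summed linear level of the 8 progenitor markers that passed, of 10 listed, ranged from 5764 to 7214 with HCA alone, against 7468 to 8288 untreated. It ranged from 5740 to 6582 with HCA, against 7261 to 9614 without HCA, at 0.1 µM, and from 5315 to 7167 with HCA, against 6951 to 8229 without HCA, at 1 µM. Of these 8 markers, 1, 1 and 2 had a positive change at 0, 0.1 and 1 µM, the highest being 0.40 at 0.1 µM. Nes, an intermediate filament gene of neural progenitors, had the lowest change of the 8 at every dose. It fell by 0.85 ± 0.17 at 0.1 µM (limma adjusted p = 0.0224). Without adaptaquin it read -0.68 ± 0.19 and at 1 µM -0.66 ± 0.17, which passed only with the replicate number as a block (limma adjusted p = 0.00434 and 0.00352). With the block, 2, 3 and 2 of the 8 progenitor markers passed at 0, 0.1 and 1 µM, in either direction. Of all probes, 2.13%, 4.76% and 3.47% passed with it. Here and below, a change and its SE are from the fit without the block, also beside an adjusted p of the blocked fit. The 6 oligodendrocyte markers that passed, of 11 listed, summed to 1889 to 2002 with HCA alone, against 2196 to 2961 untreated, with Mog, Mag and Olig2 not above background on any array. They summed to 1617 to 2115 with HCA, against 2131 to 2775 without, at 0.1 µM, and to 1555 to 1829 with HCA, against 1983 to 2666 without, at 1 µM, and at every dose 2 of the 6 had a positive change. At each dose 1 of the 6 oligodendrocyte markers passed with the block and 0 without it. The sums of the 10 astrocyte markers overlapped between HCA and no HCA at every dose, at 4817 to 5352 with HCA alone, against 4590 to 6067 untreated. Gene by gene, 7, 7 and 8 of the 10 had a negative change at 0, 0.1 and 1 µM, with medians of -0.17, -0.22 and -0.27. At each dose 0 passed in limma without the replicate block. With the block, 2 passed at 0.1 µM in opposite directions, Aldh1l1 at -0.56 ± 0.19 (limma adjusted p = 0.00422) and Atp1b2 at 0.29 ± 0.16 (limma adjusted p = 0.0464), and Aldh1l1 passed at 1 µM (-0.65 ± 0.19, limma adjusted p = 0.00239). Microglia markers, of which 7 of 12 passed, summed to 677 to 717 with HCA alone, against 608 to 699 untreated, to 725 to 779 with HCA, against 573 to 700 without, at 0.1 µM, and to 590 to 718 with HCA, against 570 to 622 without, at 1 µM. Their changes were positive in 6, 7 and 5 of the 7 at 0, 0.1 and 1 µM, the sums did not overlap at 0.1 µM, and 0 passed in limma with or without the block. Neuron markers summed to 44947 to 47227 with HCA alone, against 42261 to 47106 untreated.

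Slc1a1, the neuronal transporter, had smaller HCA changes than Slc1a2. Its brighter probe, ILMN_1225873, averaged 10.05 ± 0.06 (SD, n = 2) with HCA alone and 9.89 ± 0.09 (n = 3) untreated, 10.15 ± 0.12 with HCA and 9.92 ± 0.18 without at 0.1 µM, and 10 ± 0.13 with HCA and 9.86 ± 0.18 without at 1 µM (n = 3 each). It was higher with HCA in 8 of 8 pairs of the same number, but only by 0.09 to 0.35. The dimmer probe, ILMN_1229397, differed from it at 1 µM: its changes were 0.10 ± 0.13, 0.41 ± 0.11 and -0.01 ± 0.11 at 0, 0.1 and 1 µM. At 0.1 µM the dimmer probe read 6.99, 6.73 and 6.70 with HCA, against 6.47, 6.35 and 6.36 without HCA, so those groups did not overlap.

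The vesicular transporters, which mark glutamatergic neurons, had HCA changes of at most 0.19 in size. Slc17a6 averaged 11.34 ± 0.05 with HCA alone and 11.15 ± 0.15 untreated, and its highest and lowest group means differed by only 0.19. Its HCA changes were 0.19 ± 0.15, 0.09 ± 0.14 and 0.02 ± 0.14 at 0, 0.1 and 1 µM. Slc17a7 averaged 7.23 ± 0.03 with HCA alone and 7.29 ± 0.19 untreated. Its changes were -0.06 ± 0.25, 0.19 ± 0.22 and 0.08 ± 0.22, each within its error.

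The metabolic enzymes gave little. Glul, the enzyme that makes glutamine and a marker of astrocytes, was not above background on any of the 17 arrays by its single probe, which read 4.39 to 5.23. The level of Glul is therefore not known from these arrays. Glud1 was read by 2 probes. ILMN_3149251 read 9.84 and 9.80 on HCA-only arrays, against 9.34, 9.12 and 9.56 on untreated arrays, and ILMN_3070576 read 6.77 and 6.84, against 6.46, 6.27 and 6.34. Both groups of values were apart without adaptaquin, with changes of 0.48 ± 0.22 and 0.45 ± 0.27. They rested on the 2 HCA-only arrays used: with the array titled as an outlier, which read 8.91 and 5.87, the changes were 0.18 and 0.14. At 0.1 µM the changes were 0.11 ± 0.19 and -0.13 ± 0.24, and at 1 µM 0.23 ± 0.19 and 0.36 ± 0.24, with overlapping groups.

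**Figure D2:**
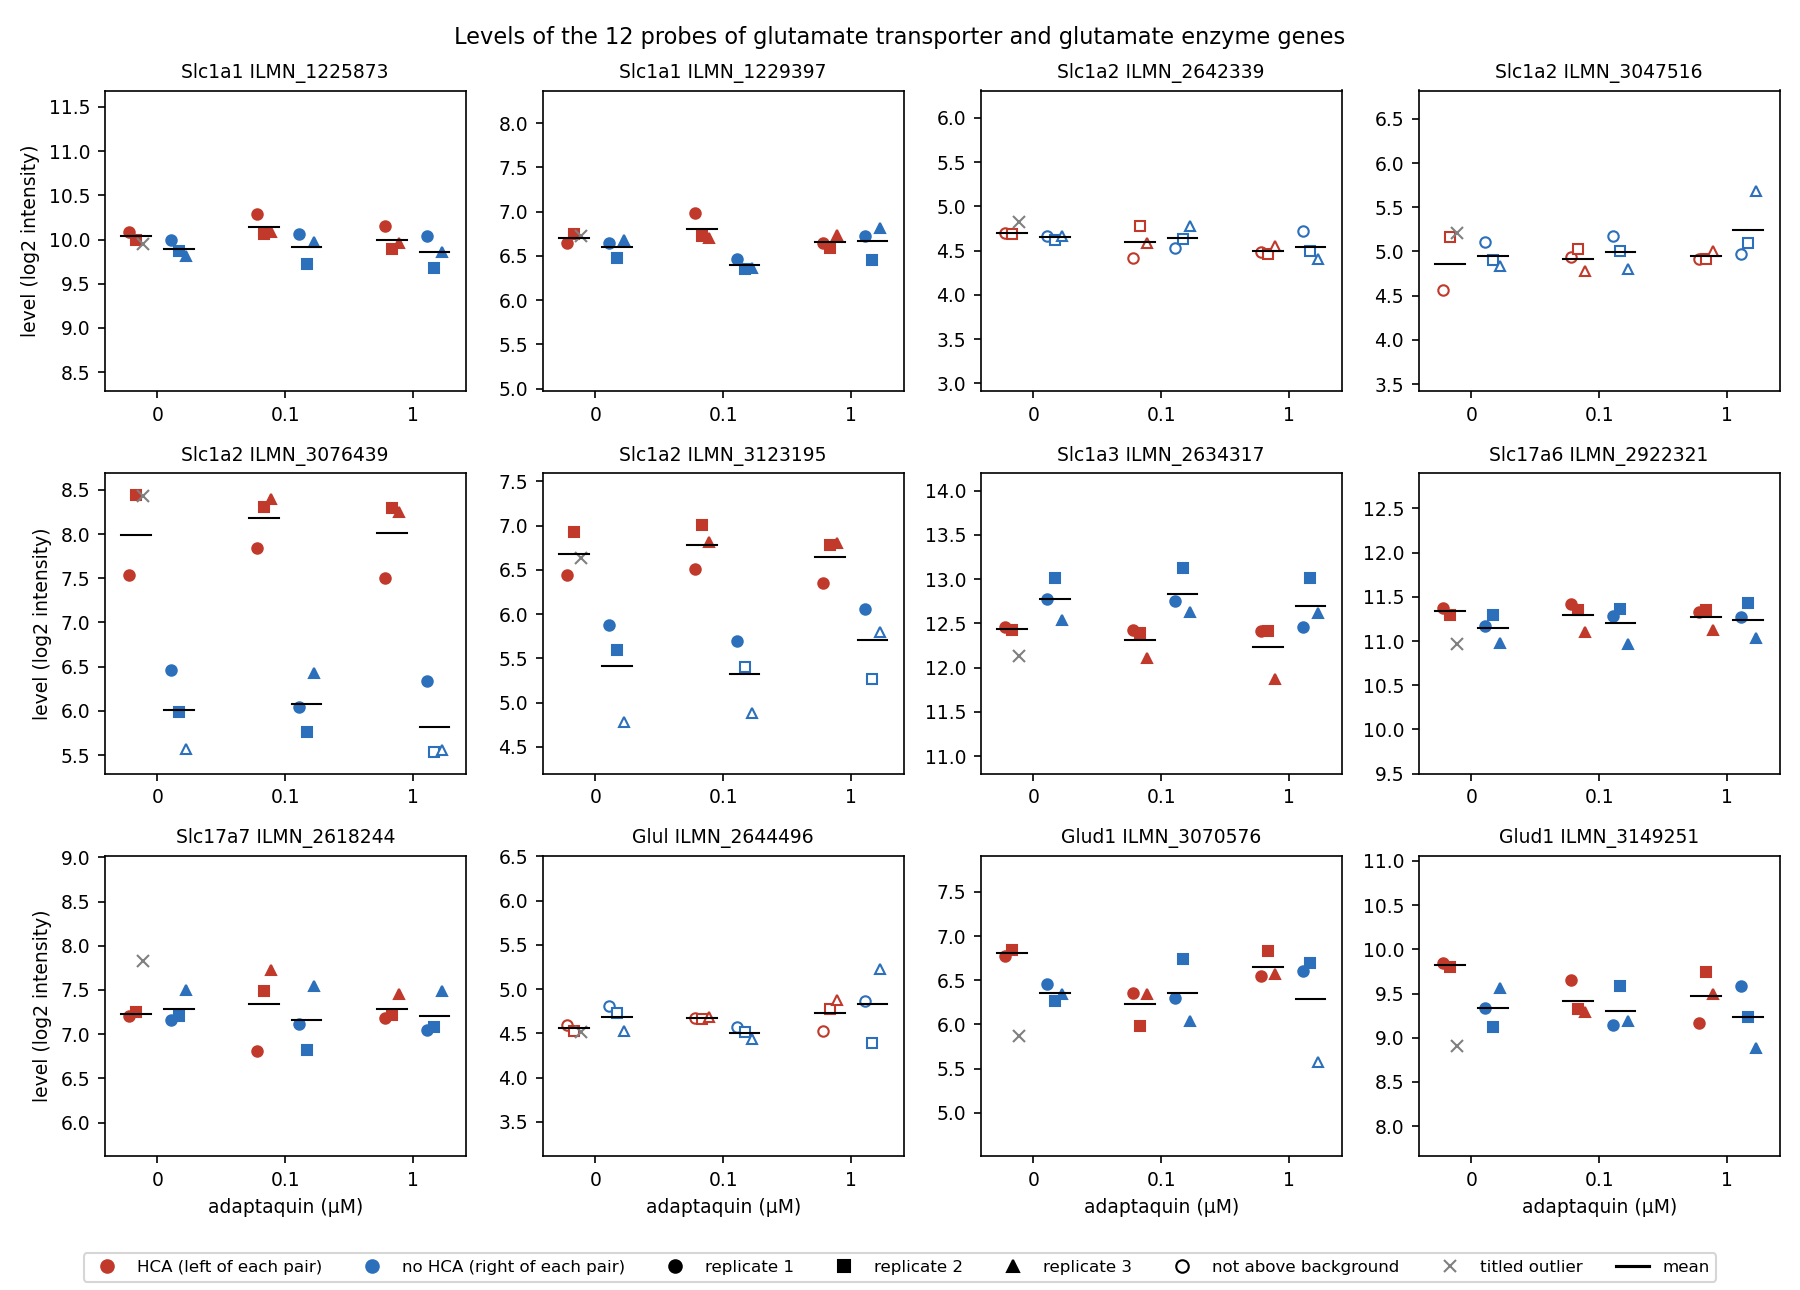
Level (log2 intensity, vertical axes, each panel spanning its own range) of all 12 probes on each array, by adaptaquin dose (0, 0.1 and 1 µM), with HCA in red on the left of each pair and no HCA in blue on the right. Bars are group means over the arrays used, shapes are replicate numbers, open symbols are not above background and the grey cross is the array titled as an outlier. Both responding Slc1a2 probes lie higher on all HCA arrays, and the Glul probe and 2 Slc1a2 probes have open symbols throughout.

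Against all probes tested, the HCA description reads as follows, and nothing follows from it for genes picked with this contrast known. The limma fit called 1 of 9 member probes without adaptaquin, where 0.677% of all 12991 probes were called (0.562% as higher). At 0.1 µM it called 2 of 9, where 1.26% of all probes were called (0.916% as higher), and at 1 µM 1 of 9, where 0.97% were called (0.677% as higher). All were Slc1a2 probes. With the replicate block the calls were 1, 4 and 1 of 9, where 2.13%, 4.76% and 3.47% of all probes were called, and the 2 that the block added at 0.1 µM were Slc1a3 and Slc1a1 by ILMN_1229397. Values with and without HCA did not overlap for 7, 5 and 3 of the 9 member probes at 0, 0.1 and 1 µM, against 31.5%, 15.7% and 14.1% of all probes.

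The comparisons with adaptaquin were not used in choosing the genes and were tested. They ask whether the drug altered these genes, alone or under HCA, or altered their HCA response. Of the 9 member probes, 0 were called by limma in any of the 4 adaptaquin comparisons or the 2 interactions, and 0 had an unadjusted p under 0.05. Among all probes, 0.115% were called for 1 µM against none without HCA (15 probes), and 0% in each of the other 5 comparisons. In those, 142 to 484 probes had an unadjusted p under 0.05.

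For Slc1a2 by ILMN_3076439 the intervals were wide. With HCA, 1 µM adaptaquin differed from none by 0.02 ± 0.35 (95% interval -0.73 to 0.77), and 0.1 µM by 0.19 ± 0.35 (-0.56 to 0.94). Without HCA, 1 µM differed from none by -0.19 ± 0.31 (-0.86 to 0.48), and 0.1 µM by 0.07 ± 0.31 (-0.60 to 0.74). The HCA change at 1 µM exceeded that without adaptaquin by 0.22 ± 0.47 (-0.79 to 1.22), and the one at 0.1 µM by 0.12 ± 0.47 (-0.88 to 1.13). By ILMN_3123195 some signs differed. Its interaction was -0.33 ± 0.43 (-1.26 to 0.59) at 1 µM and 0.19 ± 0.43 (-0.73 to 1.11) at 0.1 µM. Without HCA, 1 µM differed from none by 0.29 ± 0.29 (-0.32 to 0.91) and 0.1 µM by -0.09 ± 0.29 (-0.71 to 0.52). With HCA the values were -0.04 ± 0.32 (-0.73 to 0.65) at 1 µM and 0.10 ± 0.32 (-0.59 to 0.78) at 0.1 µM. These intervals are from the fit without the block. An adaptaquin effect on Slc1a2 of a size within them is therefore not excluded by these arrays.

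For Slc1a3, 1 µM against none gave -0.21 ± 0.21 with HCA and -0.08 ± 0.19 without HCA. The largest adaptaquin changes were those of Glud1 at 0.1 µM with HCA, -0.58 ± 0.27 by ILMN_3070576 (95% interval -1.16 to 0.00) and -0.40 ± 0.21 by ILMN_3149251 (-0.86 to 0.06), neither of which passed (limma adjusted p = 0.999 for both). The same 2 HCA-only arrays stand behind these values, which were -0.27 and -0.10 with the array titled as an outlier.

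**Figure D3:**
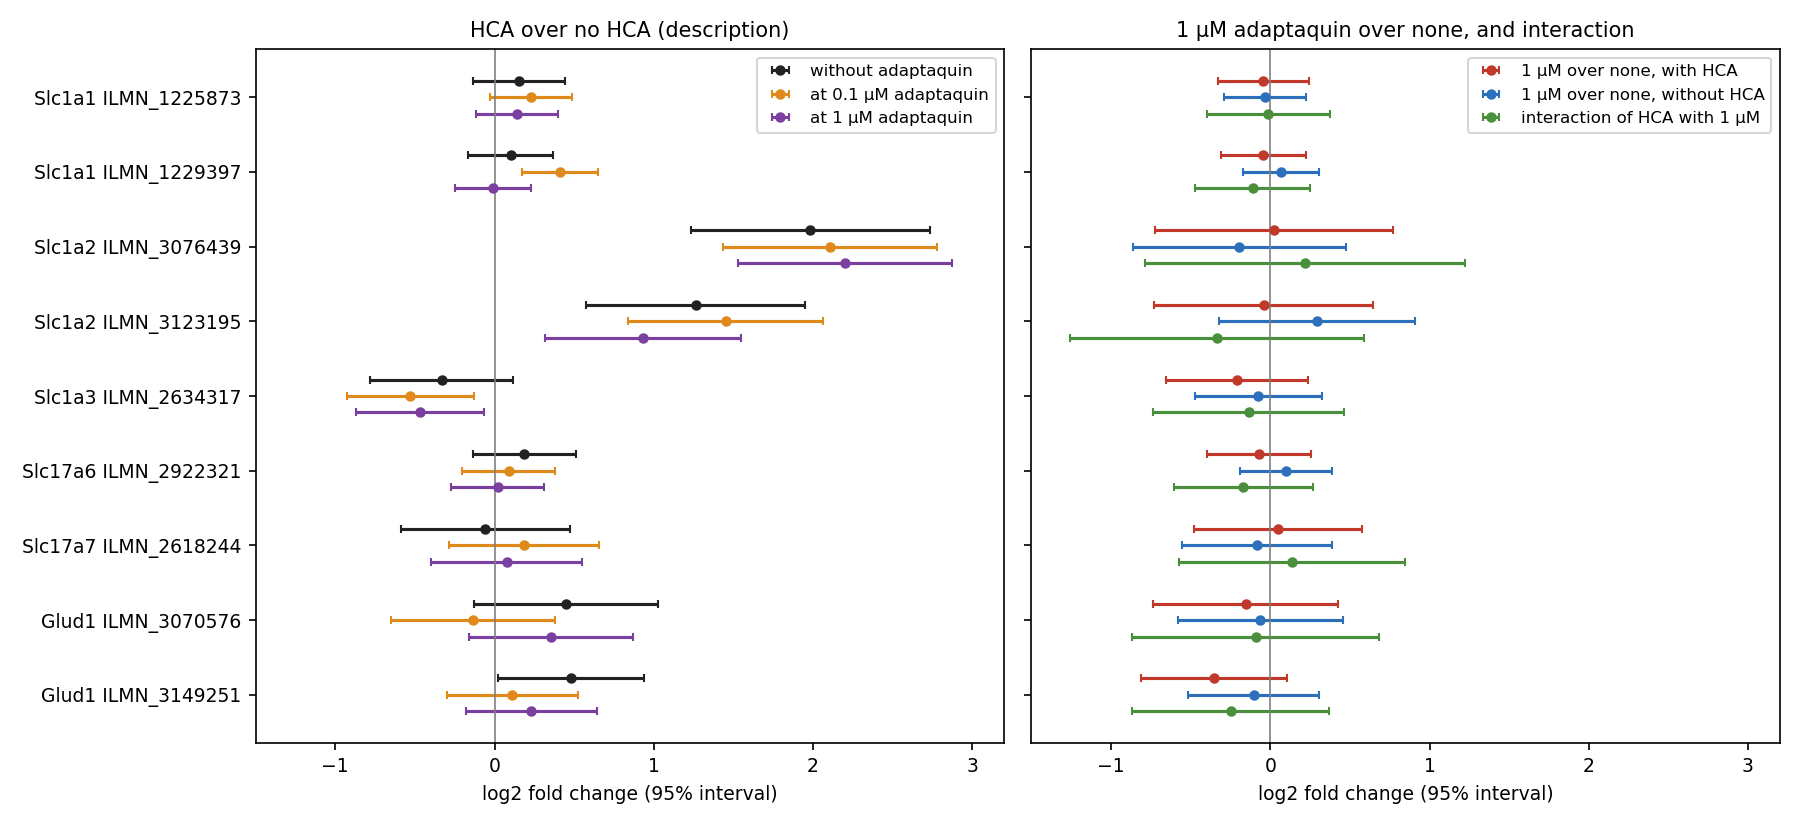
Log2 fold change with its 95% interval (horizontal axis) of the 9 member probes tested, for HCA over no HCA at each adaptaquin dose (left, a description) and for 1 µM adaptaquin over none with HCA and without HCA and the interaction of HCA with 1 µM (right). The Slc1a2 intervals lie right of 0 on the left side, and every interval on the right side spans 0.

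The other genes of glutamate handling were read from lists, 1 probe to a gene. The lists were chosen with earlier results of these data known. Of all probes, 0.562%, 0.916% and 0.677% were called as higher with HCA at 0, 0.1 and 1 µM. Of 7 other glutamate transporters tested, of 9 listed, 2 rose with HCA and 0 fell at each dose, with medians of 0.19, -0.05 and -0.09 at 0, 0.1 and 1 µM, beside medians of -0.00798 to -0.00387 over all probes. The risers were both subunits of the cystine and glutamate exchanger. Slc7a11, its transport subunit, averaged 7.78 ± 0.19 (SD, n = 2) with HCA alone and 5.97 ± 0.18 (n = 3) untreated, and rose by 1.81 ± 0.21, 1.66 ± 0.18 and 1.82 ± 0.18 at the 3 doses (limma adjusted p = 0.000296, 0.00015 and 9.4e-05). Without HCA it was above background on 3 of 3 untreated arrays, 2 of 3 at 0.1 µM and 1 of 3 at 1 µM. Slc3a2, the shared heavy chain, rose by 1.28 ± 0.21, 1.42 ± 0.19 and 1.02 ± 0.19 (limma adjusted p = 0.00718, 0.000783 and 0.0144), from close to background, since it was detected on 1 of 3 arrays in each group without HCA. Its call was lost without HCA-only replicate 1 (1.11), and at 1 µM without HCA replicate 2 or 3 (0.99 and 0.96) or replicate 2 of the arrays without HCA (0.88). The mitochondrial carrier Slc25a18, at -0.62 ± 0.55 at 0.1 µM, passed there only with the replicate block (limma adjusted p = 0.0319). The Slc1 transporters of other neurons and retina, Slc1a6 and Slc1a7, had changes between -0.23 and 0.19.

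Carriers of glutamine and neutral amino acids rose with HCA in 2, 3 and 2 of 8 tested genes (10 listed) at 0, 0.1 and 1 µM, and 0 fell. Among all probes, 0.562%, 0.916% and 0.677% were called as higher. The medians of the list were 0.43, 0.30 and 0.21. Slc7a5, a large neutral amino acid exchanger subunit that pairs with Slc3a2, averaged 13.42 ± 0.18 with HCA alone and 11.86 ± 0.18 untreated, and rose by 1.56 ± 0.14, 1.40 ± 0.13 and 1.51 ± 0.13 (limma adjusted p = 4.3e-05, 2.86e-05 and 3.6e-05). Slc1a4, a family member of the glutamate transporters that carries alanine, serine and cysteine, rose by 1.07 ± 0.17, 1.26 ± 0.15 and 1.19 ± 0.15 (limma adjusted p = 0.00718, 0.000394 and 0.00101), and without adaptaquin it was not called once either HCA-only array was left out (1.00 and 1.14). Slc7a8, another partner of Slc3a2, rose at 0.1 µM (1.16 ± 0.24, limma adjusted p = 0.0268), with values of 0.81 ± 0.27 and 0.33 ± 0.24 at 0 and 1 µM that did not pass. That call was lost without HCA replicate 2 or 3 (1.10 and 1.12) or replicate 1 or 3 of the arrays without HCA (1.20 and 0.89). The difference between doses was not called (interaction 0.35 at 0.1 µM and -0.47 at 1 µM). Slc38a2, a neuronal glutamine carrier, read 0.37 ± 0.13, 0.40 ± 0.12 and 0.44 ± 0.12, which passed at 0.1 and 1 µM only with the replicate block (limma adjusted p = 0.0242 and 0.0164).

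Among enzymes of glutamate and glutamine metabolism, 3 of 13 tested (19 listed) rose and 0 fell at each dose, with medians of 0.12, 0.06 and 0.17. Among all probes, 0.562%, 0.916% and 0.677% were called as higher. Asns, which makes asparagine from glutamine, averaged 13.28 ± 0.16 with HCA alone and 11.98 ± 0.17 untreated, and rose by 1.30 ± 0.15, 1.20 ± 0.13 and 1.28 ± 0.13 (limma adjusted p = 0.000296, 0.00015 and 0.000109). Aldh18a1, which turns glutamate towards proline, rose by 1.16 ± 0.14, 1.01 ± 0.13 and 0.86 ± 0.13 (limma adjusted p = 0.000593, 0.000548 and 0.00322). Gpt2, the mitochondrial alanine aminotransferase, rose by 0.95 ± 0.13, 1.02 ± 0.12 and 0.85 ± 0.12 (limma adjusted p = 0.00164, 0.000199 and 0.00171). In fits on only the arrays compared, the call of Gpt2 at 1 µM and those of Aldh18a1 at 0 and 1 µM were lost. Oat, which joins ornithine and glutamate metabolism, read -0.20 ± 0.12, -0.47 ± 0.11 and -0.42 ± 0.11 and passed only with the replicate block, at 0.1 and 1 µM (limma adjusted p = 0.00148 and 0.00517). With the block 4, 6 and 6 of the 13 were called, where 2.13%, 4.76% and 3.47% of all probes were called. That added Bcat1 at every dose (0.56 ± 0.19, 0.38 ± 0.17 and 0.35 ± 0.17) and Psat1 at 0.1 and 1 µM (0.57 ± 0.16 and 0.64 ± 0.16).

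At 0, 0.1 and 1 µM, 0.677%, 1.26% and 0.97% of all probes were called with HCA, so short lists would mostly hold 0 calls. Lists closer to synaptic glutamate and GABA had 0 calls with HCA at all doses in limma. These were the GABA route (5 genes tested, medians -0.04, -0.12 and 0.03), sodium pump subunits (5 tested, 0.01, 0.08 and 0.16), partners and regulators of the transporters (6 tested, 0.11, 0.03 and 0.06), ionotropic glutamate receptors (7 tested, 0.29, 0.06 and 0.19) and metabotropic receptors (1 tested, Grm7). The largest was Gria3, an AMPA receptor subunit, at 0.77 ± 0.24, 0.68 ± 0.21 and 0.63 ± 0.21, which passed with the replicate block at every dose (limma adjusted p = 0.0132, 0.00974 and 0.0181). With the block, the pump subunits Atp1b1 and Atp1b2 also passed at 0.1 µM (0.45 ± 0.13 and 0.29 ± 0.16, limma adjusted p = 0.0324 and 0.0464). Gad1, which makes GABA from glutamate, read 0.34 ± 0.22, 0.39 ± 0.19 and 0.50 ± 0.19. In the 4 adaptaquin comparisons and 2 interactions 0 genes of these 8 lists were called by limma, where 0% to 0.115% of all probes were called. Some had an unadjusted p under 0.05, in both directions. At 1 µM against none, Slc7a11 read -0.64 ± 0.18 without HCA and -0.63 ± 0.21 with HCA (limma unadjusted p = 0.00348 and 0.00784). With HCA, Slc7a6 read -0.55 ± 0.13 and Gpt 0.50 ± 0.18 (limma unadjusted p = 0.00086 and 0.0154). Of all 12991 probes, 302 without HCA and 386 with HCA had such a p at 1 µM.

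**Figure D4:**
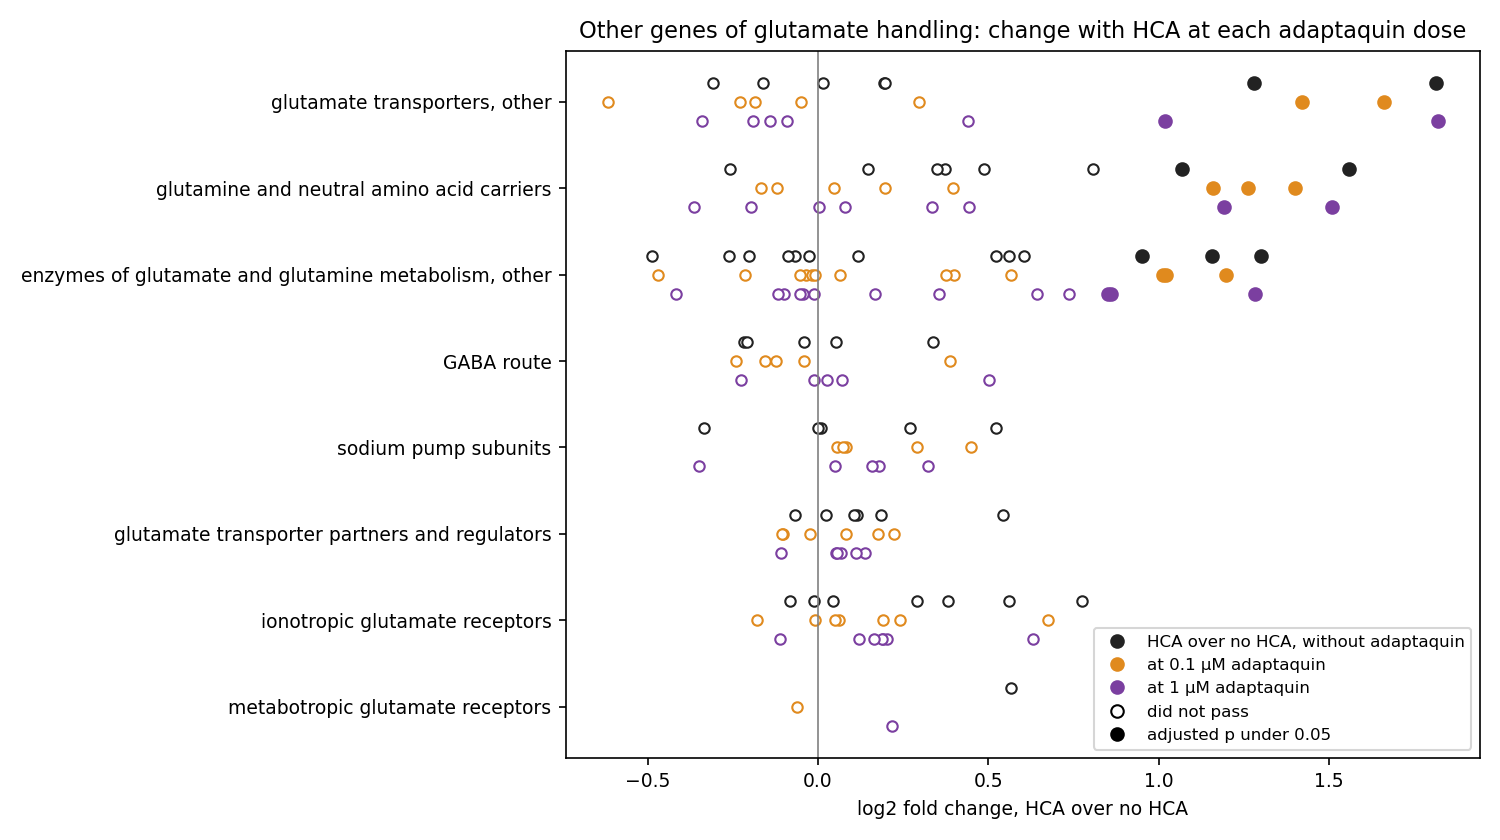
Log2 fold change with HCA over no HCA (horizontal axis) of each tested gene of 8 lists on glutamate handling, at 0 (black), 0.1 (orange) and 1 µM adaptaquin (purple). Filled points passed an adjusted p of 0.05 over all probes, and they lie in 3 of the 8 lists, all to the right of 0.

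The genes whose pattern was most like that of Slc1a2 were found by the root mean square difference over the 6 group means, each gene centred on its own untreated mean. On that scale Slc1a2 (ILMN_3076439) stood at 1.98, 2.17 and 2.01 with HCA at 0, 0.1 and 1 µM, and at 0.07 and -0.19 with 0.1 and 1 µM adaptaquin alone. Of 8916 other genes the closest was Bdnf, a neuronal growth factor (difference 0.121), with 2.13, 2.28 and 1.79 with HCA and 0.07 and -0.27 without. Next came Stc2, a secreted glycoprotein (0.144), Chac1, an enzyme that degrades glutathione (0.157), Slc6a9, a glycine transporter (0.182), and Vgf, a neuropeptide precursor (0.196). Without HCA, Stc2 was above background on 1 of 3 arrays in each group, and Bdnf on 1 of 3 at 1 µM. These likenesses describe group means on shared arrays, and by Pearson correlation over the same 6 means only Chac1 of these 5 was among the closest 5.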

How the data were processed

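RNA of cultured mouse neurons had been hybridised to 18 Illumina MouseRef-8 arrays. The values used are the intensity of each probe as deposited by the authors, without normalization between arrays, and the deposited detection p-value beside it. A deposited table of log2 values by the authors equals a quantile normalization of those intensities to within 5e-09 and served as an alternative. The sources used here name no scanner software and no earlier filter.

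The neqc function of limma 3.58.1 (R 4.3.3) estimated the background through the detection p-values, added an offset of 16, applied quantile normalization and took log2. Of 25697 probes, 23978 had 1 gene symbol in the platform annotation, 0 had several and 1719 had none. Of them, 23962 matched RefSeq (GRCm38.p6) by gene identifier, which changed 0 symbols. Upstream sequences are from RefSeq. Probes detected (p below 0.01) on 2 or more of the 17 arrays were tested, leaving 12991 probes.

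A limma model with 1 mean for each of 6 groups, 9 contrasts and empirical Bayes moderation (11 residual and 3.40 prior degrees of freedom) gave two-sided tests, adjusted by Benjamini-Hochberg over all probes, threshold 0.05. It was tested on simulated data. The number of arrays limits the precision. Replicate numbers come from the titles. Deviations of same-numbered arrays from their group means correlated at 0.195 to 0.541 in the 7 pairs of groups compared with each other, so the numbers were taken to pair the arrays. A fit with the number as a block is given where it changes a call of a member or of a gene in the pathway lists. Progenitor, oligodendrocyte, astrocyte and microglia markers have counts of its HCA calls, and its calls in other marker lists are not given. For a single gene only the adjusted p of the blocked fit is given, beside the change and SE of the fit without the block. The brightest probe stood for a gene in the lists.

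The members and lists were chosen with earlier results of these data known. Named genes were all member probes, up to 4 genes with the smallest p in each pathway list plus called genes of short lists, the 4 brightest and the undetected genes of marker lists, and the 5 genes most like Slc1a2. Aldh1l1, Gfap, Nes, Slc38a2, Slc25a18, Bcat1, Psat1, Gpt, Slc1a6 and Slc1a7 were named after their values were seen. Alternatives changed the background correction, offset, scaling, filter, probes, arrays and block.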

Additional observations from a re-analysis of the deposited data

Results flagged for a closer look

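The array of the HCA-only group that its title marks as an outlier was left out of every comparison, and 4 member probes that were above background on it stood higher than on the highest untreated array. Slc1a2 stood at 8.43 by ILMN_3076439, against 6.46 on the highest untreated array, and at 6.63 by ILMN_3123195, against 5.88. Both values lay within those of the HCA-only arrays used, 7.54 to 8.44 and 6.44 to 6.93. Slc1a1 by ILMN_1229397 stood at 6.73, against 6.68, and Slc17a7 at 7.83, against 7.50, the last of them above both HCA-only arrays used (7.21 and 7.25). Other member probes lay below every untreated array. Slc1a3 stood at 12.13, against 12.54 on the lowest untreated array, Glud1 by ILMN_3149251 at 8.91, against 9.12, and Slc17a6 at 10.97, against 10.98. The share of all probes outside the untreated values on this array was not computed, so the count of 4 carries no weight. This array was also dimmer, with an upper quartile of intensity of 241, against 333 to 563 on the other 17, and its part in these values was not tested.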

How the results depend on the processing

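No result changed sign while being called, and 0 of the 9 member probes were called in the adaptaquin and interaction contrasts under any of the 104 combinations of alternative and contrast. The HCA change of Slc1a2 by ILMN_3076439 at 0, 0.1 and 1 µM was 0.93, 1.03 and 1.00 without background correction, 1.01, 1.11 and 1.09 in the authors' log2 table, and 1.55, 1.67 and 1.69 with an offset of 50. Leaving out 1 array gave 1.54 to 2.43, 1.95 to 2.29 and 2.06 to 2.46. The count of all probes called for HCA without adaptaquin, 88, became 133 without background correction, 54 with median scaling, 141 with the array titled as an outlier, 26 from only the arrays compared and 277 with the replicate block. At 0.1 µM, 164 became 74 with median scaling, 59 from only the arrays compared and 618 with the block, and at 1 µM 126 became 56, 21 and 451. For 1 µM adaptaquin without HCA, 15 became 0, 0 and 29. Leaving out 1 array gave 34 to 82, 95 to 127, 53 to 141 and 6 to 18, lowest without HCA-only replicate 2, the 0.1 µM HCA replicate 2, the 1 µM HCA replicate 2 and untreated replicate 3. Fits on only the arrays compared use fewer samples; the cause of the other moves was not tested. Median scaling moved the median of all probes by up to -0.102 (1 µM with HCA). Outside the HCA contrasts, the replicate block changed no member's call. Probes near background, such as Slc1a2 without HCA, have fold changes limited by signal over background. Among the pathway lists, calls were lost in 7 results from only the arrays compared, in 1 with median scaling and in 10 on leaving out 1 array, and the block added 15 calls with HCA and removed 0.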
